A study of Mus musculus with 11 samples.

Results

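The miR-23, miR-27 and miR-24 clusters are a pair of paralogous microRNA genes in the mouse, each a short row of 3 hairpins cut from 1 primary transcript. Of the 1966 mature miRNAs in the deposited table, 10 belonged to them and were chosen by name. From the cluster on chromosome 8 came mmu-miR-23a-3p, mmu-miR-27a-3p, mmu-miR-27a-5p and mmu-miR-24-2-5p, and from the cluster on chromosome 13 mmu-miR-23b-3p, mmu-miR-27b-3p, mmu-miR-27b-5p and mmu-miR-24-1-5p. Both clusters encode mmu-miR-24-3p, and mmu-miR-3074-5p lies opposite miR-24 on the other strand. The species prefix is left out below. All 10 had counts, and all 10 were among the 730 miRNAs that passed the filter on low counts.

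A primary miRNA transcript is cut in the nucleus by the Microprocessor, made of the RNase DROSHA and the RNA-binding protein DGCR8, and the released hairpin is cut again by DICER. Either arm of a hairpin can be loaded into an Argonaute protein, where bases 2 to 8, the seed, do most of the pairing with target mRNAs. The miR-23, miR-27 and miR-24 families are known from endothelium, muscle, fat and blood cells, where they act on regulators of vessel growth, lipid handling and differentiation.

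The cells were mouse embryonic stem cells of the strain label NBA1-19349, kept without feeder cells in 2i and LIF medium. E518K cells carried a doxycycline-inducible Flag-tagged DGCR8 with the E518K exchange, a mutation found in Wilms tumours, brought in on a Sleeping Beauty transposon, and are represented by clones 8, 13 and 15. KO cells lacked DGCR8 (genotype label DGCR8 -/-) and received no vector; all 3 KO titles name 1 clone, although the design text speaks of independent clones, so the spread between KO libraries may be technical. Wild-type cells carried the same kind of vector with unmutated DGCR8, as clones 10, 12 and 16. All 9 of these cultures received 300 ng/mL doxycycline for 48 h. Untreated cultures of E518K clone 8 and wild-type clone 10 gave 1 library each. The labels write the genotypes of the vector-carrying cells as E518K/E518K and wt/wt, and do not say whether they were made from the DGCR8 -/- line.

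The miRNA table does not measure Dgcr8 itself. Libraries differed widely in depth. The summed miRNA count was between 1050564 and 1797240 in E518K, between 166676 and 208846 in KO and between 3394216 and 6128734 in wild type, and it was 264507 in untreated E518K and 1421247 in untreated wild type. Levels below are CPM, that is counts scaled to the library's TMM-corrected miRNA total. The limit that a count of 0 allows was set at 6 counts. This was because 90.3% of the counts from 1 to 40 were even, as if each small RNA had been entered 2 times. Among the members' own counts of any size above 0, 75.2% were even. The limit of 6 counts corresponded to 3.93 to 6.04 CPM in E518K, 12.8 to 18.3 CPM in KO and 1.11 to 2.94 CPM in wild type. The 6 miRNAs fixed as markers of embryonic stem cells summed to between 34230 and 39535 CPM in E518K, between 99.0 and 238 CPM in KO and between 84971 and 111562 CPM in wild type. Among them miR-293-3p had 3268 to 5551 CPM in E518K against 45439 to 60914 CPM in wild type. E518K also lay below wild type for miR-290a-5p and miR-292a-3p, and overlapped it for miR-291a-3p, miR-294-3p and miR-295-3p. The 5 markers of mesenchymal cells summed to between 1791 and 2584 CPM in E518K, between 5491 and 8709 CPM in KO and between 3485 and 5130 CPM in wild type, with none at 0. They did not move together in E518K against wild type. miR-143-3p (320 to 724 CPM against 2308 to 4096 CPM) and miR-145a-5p were lower. miR-199a-5p was higher (439 to 730 CPM against 309 to 415 CPM), and miR-199a-3p and miR-214-3p overlapped. Both endothelial markers, miR-126a-3p and miR-126a-5p, were at 0 in KO. Their summed levels were 54.9 to 61.5 CPM in E518K and 527 to 651 CPM in wild type. The 5 blood markers summed to between 30.5 and 273 CPM in all 9 libraries. Of these 5, 1 was at 0 in every E518K library, 3 in every KO library and 2 in every wild-type library. The part of these other cell types in the results was not tested, and in bulk libraries fewer cells of a type and less RNA per cell cannot be told apart.

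The mature sequences show which members share a seed and how closely the paralogues resemble each other. They are given 5′ to 3′ from RefSeq for GRCm38.p6, with the seed in capitals, for the 9 of 10 members that matched by name.
miR-23a-3p: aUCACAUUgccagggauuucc
miR-27a-3p: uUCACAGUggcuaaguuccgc
miR-27b-3p: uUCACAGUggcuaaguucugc
miR-27a-5p: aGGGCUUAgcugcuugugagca
miR-27b-5p: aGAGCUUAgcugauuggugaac
miR-24-3p: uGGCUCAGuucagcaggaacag
miR-24-2-5p: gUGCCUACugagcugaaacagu
miR-24-1-5p: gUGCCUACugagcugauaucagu
miR-3074-5p: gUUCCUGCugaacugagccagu

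The 9 sequences held 7 distinct seeds. miR-27a-3p and miR-27b-3p shared the seed UCACAGU and differed by 1 substitution, C19U, counted from 1 at the 5′ end with the base of miR-27a-3p first. miR-24-2-5p and miR-24-1-5p shared the seed UGCCUAC and differed at 5 positions when laid against each other without gaps, all of them behind the seed. miR-27a-5p and miR-27b-5p differed at 8 of 22 positions, among them G3A within the seed, so the passenger strands of the miR-27 hairpins carried different seeds while the guide strands carried the same one. miR-24-3p and miR-3074-5p, read from opposite strands, were complementary over 20 bases in a row.

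On GRCm38.p6 the hairpins of the chromosome 8 cluster lay on the plus strand within chr8:84208518-84208921, a span of 404 bases. Mir23a (chr8:84208518-84208592) and Mir27a (chr8:84208672-84208758) overlapped no other annotated gene, and Mir24-2 (chr8:84208815-84208921) overlapped an exon of the long noncoding RNA gene Gm26532 on the same strand. The chromosome 13 cluster lay on the plus strand within chr13:63300484-63301275, a span of 792 bases. Mir23b (chr13:63300484-63300557) was in an intron of the protein-coding gene 2010111I01Rik on the same strand, Mir27b (chr13:63300712-63300784) and Mir24-1 (chr13:63301208-63301275) overlapped an annotated UTR of a transcript of that gene, and all 3 were in an intron of Fancc, a gene of the Fanconi anaemia DNA repair pathway on the opposite strand. The hairpins Mir3074-2 (chr8:84208825-84208907) and Mir3074-1 (chr13:63301199-63301283) were annotated on the minus strand across Mir24-2 and Mir24-1.

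miR-24-3p and miR-3074-5p had the same count in 10 of 11 libraries and 7592 and 7594 counts in wild-type clone 16. No label or file header says whether counting used the strand, so these counts could belong to either strand, and the values of miR-3074-5p below are those of miR-24-3p again. miR-24-2-5p likewise shared its counts with miR-3074-2-3p. Nor is it stated how reads that match both clusters were assigned, so the split between miR-27a-3p and miR-27b-3p, which differ by 1 base, and the origin of miR-24-3p are uncertain. The same can hold for the split between miR-23a-3p and miR-23b-3p. Those sequences were not compared, because miR-23b-3p was the member without a match by name.

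Abundance was concentrated in 1 member. miR-27b-3p, the guide strand of the chromosome 13 miR-27 hairpin, held 83.3% ± 4.15 of the summed member counts in E518K, 38.2% ± 5.92 in KO and 87.8% ± 1.70 in wild type (SD, n = 3 each; miR-3074-5p left out of the sum). By mean CPM it ranked 15 among the 730 miRNAs in E518K, 42 in KO and 12 in wild type. miR-24-3p came next, with 12.0% ± 3.91 of the member counts in E518K, 38.7% ± 7.59 in KO and 7.63% ± 1.17 in wild type. Apart from miR-3074-5p, the remaining members were at or below 289 CPM in every library. The 9 members without miR-3074-5p made up 1.12% ± 0.111 of all miRNA counts in E518K, 0.311% ± 0.118 in KO and 1.10% ± 0.336 in wild type. E518K overlapped wild type in this share (two-sided exact permutation test, p = 0.9), and KO lay below wild type without overlap (0.177% to 0.397% against 0.838% to 1.48%). For KO the two-sided exact permutation test gave p = 0.1, the smallest that 3 against 3 libraries can give. The total holds some miRNAs with the same counts more than once. With these merged, the mean shares were 1.29% in E518K, 0.312% in KO and 1.35% in wild type, values that were not tested.

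**Figure D1:**
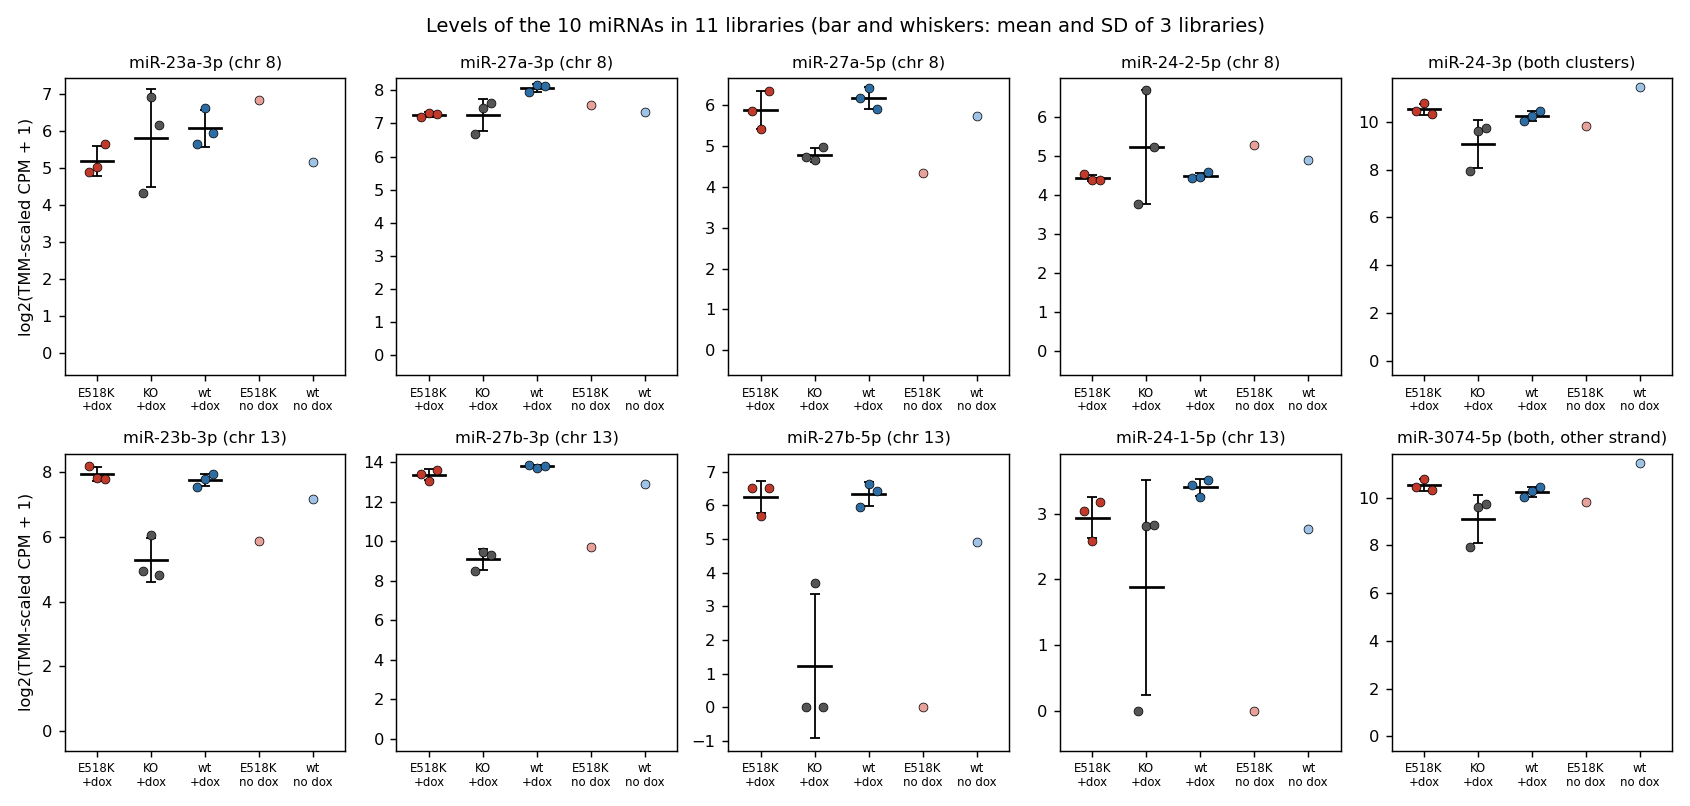
Level of each member, as log2(TMM-scaled CPM + 1), in the 3 induced groups and the 2 untreated libraries; points are libraries, and the bar and whiskers are the mean and SD of 3 libraries. The KO points sit far below the induced E518K and wild-type points for miR-23b-3p, miR-27b-3p and miR-27b-5p, where the untreated E518K point lies with or just above KO, among the others for miR-23a-3p and miR-24-2-5p, and among E518K for miR-27a-3p.

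E518K was compared with wild type for the level of the mature miRNAs; precursors and primary transcripts were not measured. No member passed the test: 0 of 10 were lower and 0 of 10 were higher by edgeR's quasi-likelihood test with Benjamini-Hochberg adjustment over the 730 miRNAs at 0.05, against 35.3% of all tested miRNAs called lower and 28.2% called higher. The lowest unadjusted edgeR p among the members was 0.044, for miR-27a-3p. DESeq2 called 3 members lower, miR-23a-3p, miR-27a-3p and miR-27b-3p, as it did 238 of the 730 tested miRNAs. The median log2 change of the members was -0.17, beside -0.14 for all tested miRNAs. In 3 of 10 members, all lower in E518K, the groups did not overlap, against 64.5% of all tested miRNAs in either direction.

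miR-27b-3p had 10969, 8520 and 12645 CPM in E518K clones 8, 13 and 15, against 14688, 13545 and 14093 CPM in wild-type clones 10, 12 and 16. Every E518K clone lay below every wild-type clone, with a log2 change of -0.40 ± 0.38 (SE; edgeR adjusted p = 0.359). Total-count scaling gave -0.05, and without wild-type clone 16 the sign turned (0.36). As a share of all miRNA counts the groups overlapped, at 0.885% to 0.975% in E518K against 0.728% to 1.28% in wild type. Its passenger strand miR-27b-5p had 90.3, 50.7 and 91.6 CPM in E518K, against 60.8, 97.7 and 85.4 CPM in wild type, with a log2 change of -0.07 ± 0.46 (edgeR adjusted p = 0.896).

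miR-27a-3p, with the same seed from chromosome 8, had 145, 159 and 156 CPM in E518K, against 244, 288 and 277 CPM in wild type. The 3 E518K values were close together and below all 3 wild-type values, and the log2 change was -0.81 ± 0.40 (edgeR adjusted p = 0.067). This missed the threshold, and DESeq2 (-0.98, adjusted p = 3.93e-05) and edgeR with DESeq2's size factors (-0.98, adjusted p = 0.0121) called it lower. Without wild-type clone 16 the log2 change was -0.08.

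miR-23a-3p, next to it in the same transcript, had 28.8, 31.6 and 49.3 CPM in E518K, against 49.1, 98.3 and 60.2 CPM in wild type. The groups touched at their edges, and the log2 change was -0.93 ± 0.47 (edgeR adjusted p = 0.0753). DESeq2 called it lower (adjusted p = 0.0369), and without wild-type clone 16 the log2 change was -0.27 (edgeR adjusted p = 0.723). miR-23b-3p, its paralogue on chromosome 13, had 289, 224 and 222 CPM in E518K, against 187, 219 and 244 CPM in wild type, so that the groups overlapped (log2 change 0.18 ± 0.40, edgeR adjusted p = 0.708).

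miR-24-3p, which both clusters encode, had 1400, 1777 and 1299 CPM in E518K, against 1041, 1230 and 1407 CPM in wild type. The groups overlapped, with a log2 change of 0.28 ± 0.37 (edgeR adjusted p = 0.511). Without wild-type clone 16, miR-24-3p and miR-3074-5p passed the test as higher, at 1.09 (edgeR adjusted p = 0.049), and the median of all tested miRNAs moved to 0.73. The passenger strands miR-27a-5p, miR-24-2-5p and miR-24-1-5p had log2 changes of -0.27, -0.06 and -0.50, with edgeR adjusted p between 0.514 and 0.924. miR-24-1-5p was the rarest member, at 4.99 to 8.06 CPM in E518K against 8.50 to 10.4 CPM in wild type. Its E518K values, on 11, 6 and 8 counts in clones 8, 13 and 15, were near the limit that a count of 0 allows.

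**Figure D2:**
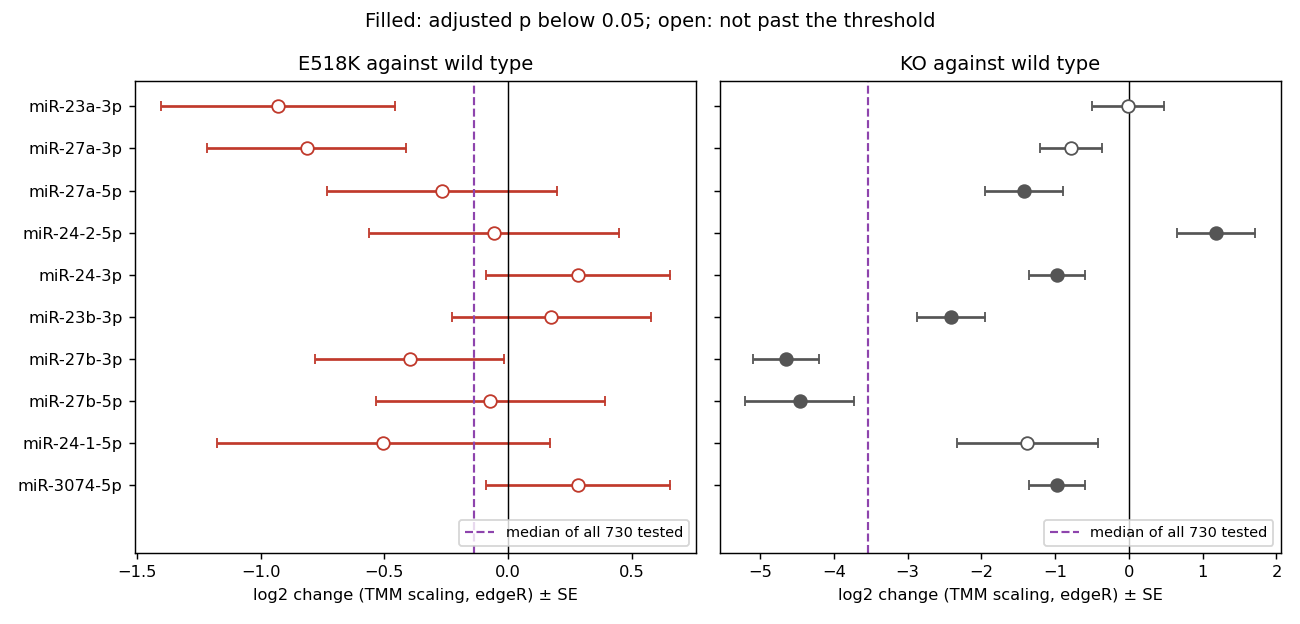
Log2 change of each member with its SE in E518K against wild type and in KO against wild type, from edgeR with TMM scaling; filled points had an adjusted p below 0.05 and the dashed line is the median of all 730 tested miRNAs. No point is filled for E518K, and in KO the points spread between -4.65 for miR-27b-3p and 1.18 for miR-24-2-5p.

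In KO against wild type, 3 of the 4 arms that belong to the chromosome 13 cluster alone fell, miR-27b-3p, miR-27b-5p and miR-23b-3p, with log2 changes between -4.65 and -2.41. Of the 4 arms of the chromosome 8 cluster alone, miR-27a-5p fell (-1.42), with the sign reversed under total-count scaling (0.22). Of all 10 members, 6 were lower (58.4% of all tested miRNAs were) and 1 was higher (30.0% of all), by edgeR's quasi-likelihood test with Benjamini-Hochberg adjustment. The median log2 change of the members was -1.18, beside -3.54 for all tested miRNAs. The groups did not overlap in 8 of 10 members, against 84.9% of all tested miRNAs.

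miR-27b-3p had 354, 702 and 634 CPM in the 3 KO libraries, against 14688, 13545 and 14093 CPM in wild type. The wild-type mean was 25.0 times the KO mean, and the log2 change was -4.65 ± 0.45 (edgeR adjusted p = 4.29e-23). It remained lower in all 14 alternatives run, with values between -9.92 and -3.08. Even so, 166, 234 and 208 counts of this strand were present in the KO libraries, well over the limit of 6.

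miR-27b-5p, from the same hairpin, had 0, 12.0 and 0 CPM in KO, against 60.8, 97.7 and 85.4 CPM in wild type. The KO value rests on 4 counts in 1 library, so the fitted log2 change of -4.46 ± 0.74 (edgeR adjusted p = 4.97e-09) is not precise, although the call held in all 14 alternatives. miR-23b-3p had 29.8, 66.0 and 27.5 CPM in KO, on 14, 22 and 9 counts, against 187, 219 and 244 CPM in wild type. Its log2 change was -2.41 ± 0.47 (edgeR adjusted p = 5.56e-07). The call held in 13 of 14 alternatives and was lost with total-count scaling (-0.85, edgeR adjusted p = 0.142).

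The chromosome 8 members did not move as a block. miR-23a-3p had 19.2, 120 and 70.2 CPM in KO, against 49.1, 98.3 and 60.2 CPM in wild type, and the log2 change was -0.02 ± 0.49 (edgeR adjusted p = 0.971). The KO libraries enclosed the wild-type range, and the sign changed with total-count scaling (1.59, edgeR adjusted p = 0.011) and in 4 of the fits that left out 1 library. miR-27a-3p had 102, 174 and 195 CPM in KO, all below the wild-type clones, with a log2 change of -0.79 ± 0.41 (edgeR adjusted p = 0.0654) that was positive, at 0.79, under total-count scaling. It was called lower in 6 of 14 alternatives, among them DESeq2 (-0.77, adjusted p = 0.0022), pRPM scaling (-2.68) and merged counts (-1.70), and leaving out 1 library gave between -1.22 and -0.17.

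miR-27a-5p had 25.6, 24.01 and 30.5 CPM in KO, on 12, 8 and 10 counts, against 71.6, 84.7 and 58.6 CPM in wild type. Its log2 change of -1.42 ± 0.53 passed the test (edgeR adjusted p = 0.00971), was lost when KO library 2 or 3 or wild-type clone 10 or 12 was left out (adjusted p between 0.243 and 0.419), and was 0.22 under total-count scaling. miR-24-2-5p, the passenger strand of the chromosome 8 miR-24 hairpin, had 12.8, 102 and 36.6 CPM in KO, on 6, 34 and 12 counts. In wild type it had 20.6, 21.2 and 22.98 CPM. It was the only member called higher (log2 change 1.18 ± 0.53, edgeR adjusted p = 0.03), but the groups overlapped, KO library 1 was below all wild-type clones, the call was lost without KO library 1, KO library 2 or wild-type clone 16 (adjusted p = 0.0634, 0.277 and 0.0759), and the sign was negative with the authors' pRPM scaling (-0.72).

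miR-24-3p had 243, 780 and 854 CPM in KO, against 1041, 1230 and 1407 CPM in wild type. All KO values were below the wild-type clones, and the log2 change was -0.97 ± 0.38 (edgeR adjusted p = 0.0128). The call was lost when KO library 2 or 3 or any wild-type clone was left out (adjusted p between 0.0953 and 0.299), and total-count scaling gave 0.55. miR-24-1-5p had 0, 6.002 and 6.10 CPM in KO, against 9.81, 8.50 and 10.4 CPM in wild type, on 4 KO counts in all (log2 change -1.38 ± 0.96, edgeR adjusted p = 0.165).

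The arms of the same hairpins that are not members gave little further signal. miR-23a-5p had 2 counts in wild-type clone 10 and none elsewhere, and was not tested. miR-23b-5p averaged 9.31 CPM in E518K, 0 in KO and 10.6 CPM in wild type, and was not called in E518K against wild type (edgeR adjusted p = 0.843). Its count of 0 in each KO library allows up to 12.8 to 18.3 CPM in that library, more than the wild-type level. No single KO library could therefore show a fall. The fit, which takes the KO libraries together, called it lower (edgeR adjusted p = 0.00106), and the size of the fall is not known. miR-3074-1-3p averaged 11.8 CPM in E518K, 4.03 CPM in KO and 15.2 CPM in wild type. Its log2 change in KO against wild type was -2.05 (edgeR adjusted p = 0.0212), on 4 KO counts in all.

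**Figure D3:**
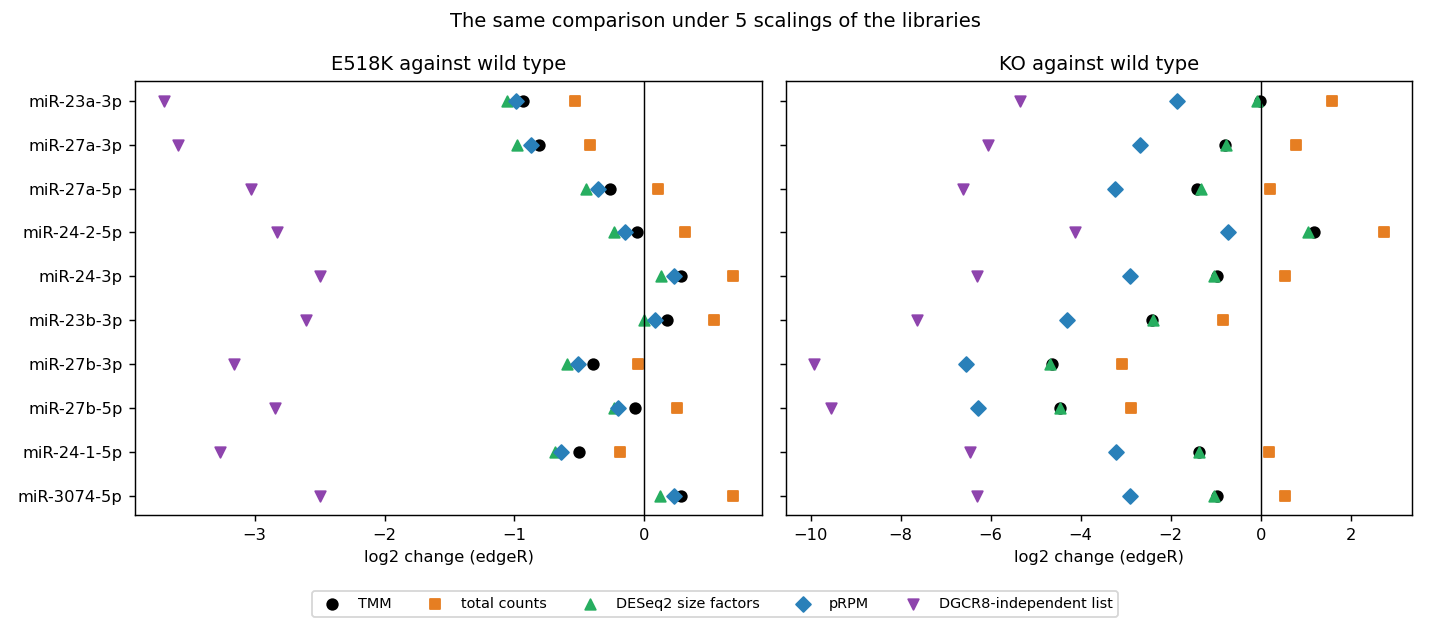
Log2 change of each member from edgeR under 5 scalings of the libraries, for E518K against wild type and for KO against wild type. In KO, miR-27b-3p, miR-27b-5p and miR-23b-3p lie left of 0 under all 5 scalings, while the other 7 members have at least 1 scaling on the right of 0.

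In E518K against KO, 6 of 10 members were higher (41.9% of all tested miRNAs were) and 1 was lower (26.2% of all), by edgeR's quasi-likelihood test with Benjamini-Hochberg adjustment. The median log2 change of the members was 1.21, beside 1.35 for all tested miRNAs, and the groups did not overlap in 6 of 10 members, against 67.5% of all. This comparison shares its E518K and KO libraries with those above.

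The mean level of miR-27b-3p in E518K was 19.0 times that in KO (log2 change 4.25 ± 0.44, edgeR adjusted p = 4.19e-20). miR-27b-5p (4.39 ± 0.74, edgeR adjusted p = 1.79e-08) and miR-23b-3p (2.59 ± 0.47, edgeR adjusted p = 1.38e-07) were likewise higher, and these 3 calls held in all 14 alternatives. miR-24-3p (1.26, edgeR adjusted p = 0.00204), with miR-3074-5p, and miR-27a-5p (1.16, edgeR adjusted p = 0.0485) were higher by less. Both calls were lost when KO library 2 or 3 or E518K clone 8 or 13 was left out and with total counts, where miR-24-3p was at 0.14 and miR-27a-5p changed sign (-0.11), and miR-27a-5p was called in 6 of 14 alternatives. miR-27a-3p (-0.03, edgeR adjusted p = 0.986) and miR-23a-3p (-0.91, edgeR adjusted p = 0.0984) did not pass the test. miR-24-2-5p was lower (-1.24, edgeR adjusted p = 0.0371) with overlapping groups, and its sign was positive under the pRPM scaling (0.58).

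Because the 5 scalings moved the median of all tested miRNAs in KO against wild type between -8.23 and -2.03, ratios between members within a library, which no scaling can change, were compared as well. Of the 12 comparisons of ratios that were tested, 7 set E518K and 5 set KO against wild type, and with 3 libraries a group the smallest two-sided exact permutation p is 0.1, so none could pass 0.05.

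The largest of these differences was between the miR-27 guide strands in KO. For each count of miR-27a-3p the KO libraries held 3.46, 4.03 and 3.25 counts of miR-27b-3p, against 60.2, 47.0 and 50.9 in the wild-type clones. The mean log2 ratio of miR-27a-3p to miR-27b-3p was -1.82 ± 0.16 in KO and -5.71 ± 0.18 in wild type (SD, n = 3 each), a difference of 3.90 without overlap (two-sided exact permutation p = 0.1, adjusted 0.24 over the 12). In E518K clones 8, 13 and 15 there were 75.5, 53.7 and 81.0 counts of miR-27b-3p for each of miR-27a-3p; the mean log2 ratio of -6.10 ± 0.32 differed from wild type by -0.39, and the groups overlapped (exact permutation p = 0.2, adjusted 0.3).

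The ratio of the miR-23 paralogues lay below that of wild type in E518K and above it in KO. The log2 ratio of miR-23a-3p to miR-23b-3p was -2.74 ± 0.58 in E518K, 0.50 ± 0.97 in KO and -1.69 ± 0.47 in wild type (SD, n = 3 each). The E518K libraries, at -3.30, -2.79 and -2.14, all lay below the wild-type libraries, at -1.92, -1.15 and -2.01, by a mean of -1.05, and the KO libraries, at -0.58, 0.83 and 1.26, all lay above them, by a mean of 2.20 (exact permutation p = 0.1, adjusted 0.24 for each). The gap between E518K clone 15 and wild-type clone 16 was small beside the spread within either group. The KO ratios rest on 9, 40 and 23 counts of miR-23a-3p and 14, 22 and 9 counts of miR-23b-3p.

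Within the chromosome 13 cluster, the log2 ratio of miR-23b-3p to miR-27b-3p was -5.44 ± 0.34 in E518K, -3.74 ± 0.56 in KO and -6.03 ± 0.23 in wild type, differences of 0.59 and 2.29 without overlap (exact permutation p = 0.1, adjusted 0.24 for each, past no threshold). For E518K the groups nearly touched, at -5.83 in clone 15 against -5.85 in wild-type clone 16. The KO ratios rest on 14, 22 and 9 counts of miR-23b-3p. Within the chromosome 8 cluster the log2 ratio of miR-23a-3p to miR-27a-3p was -2.08 ± 0.38 in E518K, -1.42 ± 0.88 in KO and -2.02 ± 0.41 in wild type, with overlapping groups. The guide-to-passenger ratio of the miR-27a hairpin was 1.40 ± 0.49 in E518K, 2.40 ± 0.42 in KO and 1.92 ± 0.27 in wild type, also with overlap, and that of the miR-27b hairpin was 7.13 ± 0.23 in E518K and 7.46 ± 0.41 in wild type.

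**Figure D4:**
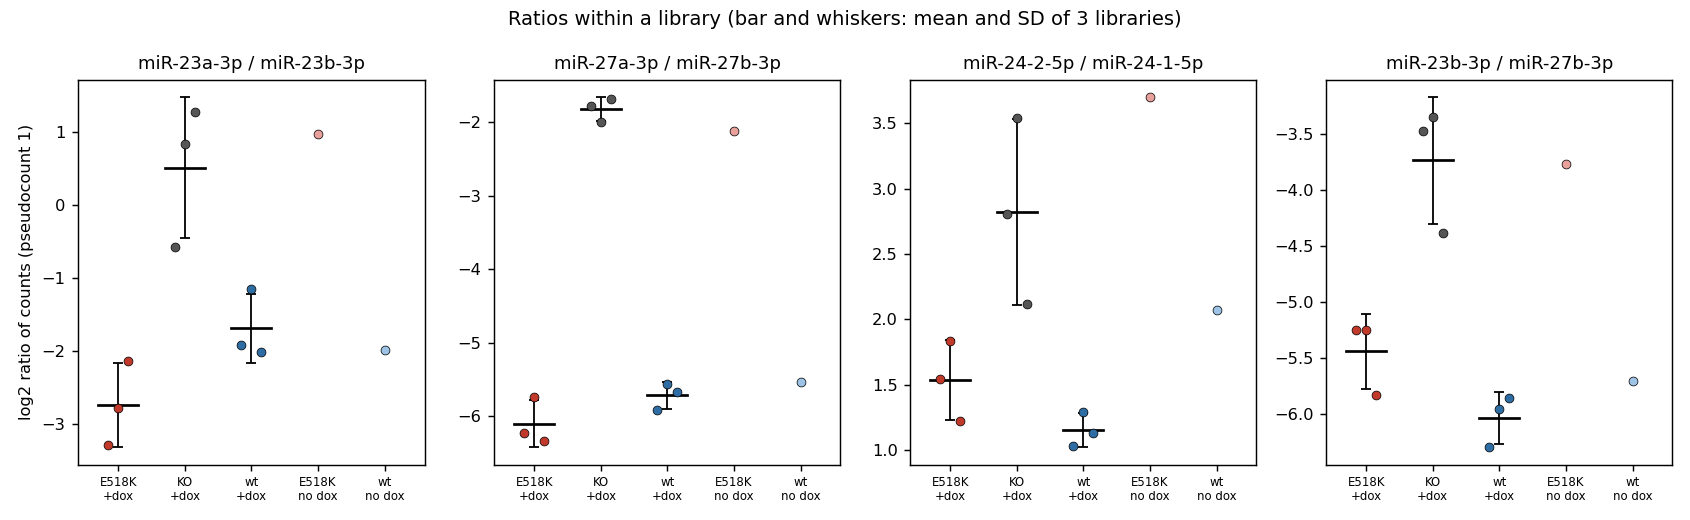
Log2 ratio of the counts of 2 members within each library, with a pseudocount of 1; points are libraries, and the bar and whiskers are the mean and SD of 3 libraries. For miR-27a-3p over miR-27b-3p the KO libraries lie between -1.99 and -1.68 and the wild-type libraries between -5.91 and -5.55.

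The summed counts of the arms that belong to 1 cluster alone are mostly counts of miR-27b-3p on the chromosome 13 side, so they largely restate its ratio to miR-27a-3p. Of these counts, 97.6% ± 0.318 came from the chromosome 13 arms in E518K, 67.5% ± 2.78 in KO and 97.1% ± 0.466 in wild type (SD, n = 3 each). As a share of all miRNA counts of a library, the chromosome 13 arms held 0.960% ± 0.0501 in E518K, 0.124% ± 0.0358 in KO and 0.985% ± 0.293 in wild type. The chromosome 8 arms held 0.0239% ± 0.00425 in E518K, 0.0614% ± 0.0242 in KO and 0.0292% ± 0.00783 in wild type. The share of KO libraries for chromosome 8 is taken of a much smaller miRNA total, so it does not give an absolute amount.

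The untreated libraries, 1 of each clone and therefore without a test, differed between the vectors. In E518K clone 8, miR-27b-3p had 10969 CPM with doxycycline and 820 CPM without, a multiple of 13.4, and miR-23b-3p had 289 CPM with and 57.2 CPM without. The untreated E518K library lay within the range of the KO libraries for miR-23a-3p, miR-23b-3p, miR-27a-3p, miR-27b-5p, miR-24-1-5p and miR-24-2-5p. How many of all tested miRNAs did so was not counted. The KO range was wide for miR-23a-3p (19.2 to 120 CPM) and miR-24-2-5p (12.8 to 102 CPM). In the untreated E518K library 6 counts corresponded to 19.1 CPM, and miR-27b-5p and miR-24-1-5p had none. It lay above the KO range for miR-27b-3p and for miR-24-3p with miR-3074-5p. For miR-27a-5p it lay below that range, on 6 counts against 8 to 12 in KO.

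In wild-type clone 10, miR-27b-3p had 14688 CPM with doxycycline and 7539 CPM without, a multiple of 1.95. miR-24-3p went the other way, with 1041 CPM with doxycycline and 2813 CPM without. The chromosome 13 arms made up 71.0% of the locus-specific counts in untreated E518K (exact 95% binomial interval 64.2% to 77.4%) and 96.5% in untreated wild type (95.8% to 97.2%). The untreated E518K proportion was thus near the 65.2% to 70.6% of the KO libraries and the untreated wild-type proportion near the 96.6% to 97.5% of the induced wild type.

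Across the 11 libraries 3 of the 4 chromosome 13 arms followed each other closely. On log2 CPM, Pearson's r was 0.96 between miR-23b-3p and miR-27b-3p and 0.94 between miR-27b-3p and miR-27b-5p, while the fourth, miR-24-1-5p, had an r between 0.66 and 0.79 with these 3. miR-27a-5p from chromosome 8 also followed miR-27b-3p (0.91). miR-23a-3p had an r of 0.64 with miR-27a-3p and 0.71 with miR-24-2-5p, both from its own cluster, of -0.17 with miR-27a-5p, also from its own cluster, and of -0.12 with its paralogue miR-23b-3p. These are descriptions over libraries that share depth and scaling and fall into groups. Of 717 other miRNAs, the 5 whose log2 CPM was most like the mean of miR-23a-3p, miR-23b-3p, miR-27a-3p, miR-27b-3p and miR-24-3p were miR-370-3p (r = 0.976), miR-106b-5p (0.970), miR-700-5p (0.956), miR-669o-5p (0.953) and miR-423-3p (0.953). miR-370-3p averaged 423 CPM in E518K, 12.1 CPM in KO and 1658 CPM in wild type, and miR-106b-5p averaged 1294 CPM in E518K, 10.1 CPM in KO and 1114 CPM in wild type.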

How the data were processed

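Small RNA libraries (NEBNext kit, total RNA extracted with peqGold TriFast, per the labels' protocols) of 11 cultures were analysed from the count table the authors deposited, which holds raw counts of 1966 mature miRNAs. STAR, bedtools and the build GRCm38.p6 appear in the submitters' processing notes with no tool version or role. The RPM-type values (pRPM) that the authors deposited were the counts times 1 factor per library. Multiplied by the median ratio of count to pRPM of their library, they gave whole reads in 100% of cases within 0.01 and equalled the counts. They served only as an alternative scaling, and their total is 1 constant per group (683476 in E518K, 85006 in KO and 938495 in wild type) of unstated origin, on which every change printed under pRPM scaling depends. A file labelled piRNA held the same values and was not used here.

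Counts were fitted over 5 groups with edgeR 4.0.16 (R 4.3.3; robust quasi-likelihood fit, TMM, minimum count 10, minimum total 15), with Benjamini-Hochberg adjustment over 730 miRNAs and a threshold of 0.05. All groups shared 1 estimate of the spread. Alternatives were total counts, DESeq2 1.42.0 and its size factors, pRPM, 13 miRNAs known to be made without DGCR8, no filter, miRNAs with the same counts merged, 2 groups only, and each library left out. Ratios used a pseudocount of 1. Replicate libraries were not copies of each other (chi-square divided by its degrees of freedom, 24.3 to 557), and the p-values measure the spread between these libraries. Binomial intervals (Clopper-Pearson, 95%) were taken on counts divided by 2 and cover counting error only, as do the limits for a count of 0. All 10 members are named, and likeness was ranked by Pearson's r. The members and lists were chosen with earlier results of these data known. Sequences are from RefSeq and overlapping genes from the GENCODE annotation of GRCm38.p6.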

Additional observations from a re-analysis of the deposited data

How the results depend on the processing

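Of 416 values of single members under other settings, 301 kept their direction and side of the threshold, 42 lost the call, 32 gained one and 41 changed sign. The calls of miR-27b-3p and miR-27b-5p in both comparisons with KO, and of miR-23b-3p in E518K against KO, held in all 14 alternatives. No paired analysis was possible because the groups compared share fewer than 2 clone or replicate numbers. The cause of the changes below was not tested; the scaling on 13 DGCR8-independent miRNAs moved the median of all tested miRNAs to -2.90 in E518K and -8.23 in KO against wild type, and in it all 10 members were lower in both, as were 498 and 536 of the 730 tested miRNAs. Depth limits miR-24-1-5p, miR-27b-5p and miR-3074-1-3p, which had 4 counts each in KO, and miR-23b-5p, which had none. KO counts were also few for miR-23a-3p (9, 40 and 23), miR-23b-3p (14, 22 and 9), miR-27a-5p (12, 8 and 10) and miR-24-2-5p (6, 34 and 12).

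In E518K against wild type, where 0 members were called, the lower count was 2 with DESeq2 size factors (269 of 730 tested miRNAs). It was 10 with the list (498 of 730), 3 with DESeq2 (238 of 730) and 2 with those 2 groups only (240 of 530). The higher count was 0 to 2 when 1 library was left out (148 to 250 of all tested miRNAs). It was 2 without wild-type clone 16 (250 of 688). In KO against wild type, the lower count was 2 with total counts (319 of 730), 10 with the list (536 of 730) and 9 with pRPM (468 of 730). It was 7 with DESeq2 (391 of 730), its size factors (421 of 730) and merged counts (414 of 682). Leaving out 1 library gave 3 to 7 (358 to 430 of all tested miRNAs). The higher count was 2 with total counts (245 of 730). It was 0 with the list (26 of 730), pRPM (167 of 730), DESeq2 (208 of 730) and merged counts (195 of 682). Leaving out 1 library gave 0 to 1 (185 to 220 of all tested miRNAs). In E518K against KO, the lower count was 3 with total counts (249 of 730). It was 0 with the list (30 of 730), pRPM (61 of 730), merged counts (131 of 682) and 2 groups only (147 of 411). Leaving out 1 library gave 0 to 2 (124 to 205 of all tested miRNAs). The higher count was 3 with total counts (250 of 730), 10 with the list (412 of 730) and 8 with pRPM (380 of 730). Leaving out 1 library gave 3 to 6 (245 to 342 of all tested miRNAs). The log2 ratio of miR-24-2-5p to miR-24-1-5p in KO minus wild type was 1.67, and 0.57 with a pseudocount of 5. Merging left miR-3074-5p no value of its own, and miR-24-1-5p had no value in E518K against KO with those 2 groups only.

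Signs changed in E518K against wild type with total counts for miR-27a-5p (0.10), miR-27b-5p (0.25) and miR-24-2-5p (0.31), with the list for miR-23b-3p (-2.60), miR-24-3p (-2.50) and miR-3074-5p (-2.50), and with 2 groups only for miR-24-2-5p (0.0016). Leaving out 1 library gave -0.082 to 0.97 for miR-23b-3p, -0.48 to 0.38 for miR-27a-5p, -0.50 to 0.36 for miR-27b-3p, -0.34 to 0.71 for miR-27b-5p, -0.70 to 0.27 for miR-24-1-5p and -0.24 to 0.69 for miR-24-2-5p. Signs changed in KO against wild type with total counts for miR-23a-3p (1.59), miR-27a-3p (0.79), miR-27a-5p (0.22), miR-24-3p and miR-3074-5p (0.55 each) and miR-24-1-5p (0.18), and for miR-24-2-5p with the list (-4.12) and pRPM (-0.72); leaving out 1 library gave -0.21 to 0.76 for miR-23a-3p. Signs changed in E518K against KO with total counts for miR-27a-5p (-0.11) and miR-24-1-5p (-0.36), with the list for miR-23a-3p (1.64), miR-27a-3p (2.46) and miR-24-2-5p (1.29), with pRPM for the same 3 (0.88, 1.80 and 0.58), with merged counts for miR-23a-3p (0.078) and miR-27a-3p (0.95), and with 2 groups only for miR-27a-3p (0.020); leaving out 1 library gave -0.71 to 0.81 for miR-27a-3p.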
